A study of Mus musculus with 46 samples.

Results

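The cholesterol synthesis genes described here are Hmgcs1, Idi1, Fdps, Fdft1, Sqle, Lss, Cyp51 and Insig1. They were taken by symbol, with earlier results of these data known, as 8 of the 37108 genes of the deposited time-course table and, after summing transcripts by symbol, from a second table of induced pluripotent stem cell (iPSC) samples. All 8 were measured in both tables and passed the filter on low values.

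The cells were mouse embryonic fibroblasts (MEF) that carry the OG2 transgene, a GFP reporter of Oct4. They were transduced with retroviruses for Oct4 together with either native Nanog (NanogWT) or NanogBiD, in which the N-terminal domain of the chromatin remodelling subunit SS18 is fused to Nanog (NanogN70 in the labels). The MEF were grown in medium with serum before transduction. RNA-seq libraries were made at D0, the end of infection, and on 7 later days (D1, D3, D5 and D7, then D8, D10 and D12). There were 2 libraries per combination and day, except for 1 of NanogBiD at D8, which gave 31 time-course libraries beside 2 of MEF and 1 of mouse embryonic stem cells (mES). Both combinations carried Oct4, both went into the reprogramming medium iCD3 at D0 and both were moved at about day 7 to N2B27+2iL, a medium with 2 kinase inhibitors and LIF in which the iPSC and mES were kept as well. Whether the D7 libraries were taken before or after that change is not given in the sources used here. The iPSC table held 6 samples per combination, 7 of them labelled iPSC1 and 5 labelled iPSC2, again with 2 MEF and 1 mES. By their labels these are the same MEF and mES samples, but their FPKM differ between the 2 tables for some members. Mean Fdft1 in MEF was 15.5 FPKM in the time-course table and 38.4 in the iPSC table. Idi1 was at 57.6 and 33.0, whereas Sqle was at 68.4 and 67.2. Levels are therefore compared within each table only. The cells were whole transduced cultures, so that fewer cells expressing a gene and less RNA per cell cannot be told apart.

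Cells make cholesterol from acetyl-CoA along the mevalonate pathway. Most of its enzymes are under SREBP2 (gene Srebf2), a transcription factor held in the endoplasmic reticulum by SCAP and the INSIG proteins while sterol is plentiful and released to the nucleus when sterol runs short. Its targets therefore tend to move together. The members cover the route from its first committed condensation (Hmgcs1) over isoprenoids (Idi1, Fdps) and squalene (Fdft1, Sqle) to the sterol ring (Lss, Cyp51), and Insig1 is both a target of SREBP and part of the brake on it.

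Sequences before the start site are shown for the members in the promoter table used here (RefSeq, GRCm38.p6). The RNA levels of most members tended to move together, and whether these sequences have a part in that was not tested. Capitals mark CCAAT boxes, read as CCAAT on either strand, and matches to the sterol regulatory element motif TCACNCCAC on either strand. Each line holds the 250 bases before the annotated start, 5′ to 3′ on the strand of the gene. The windows are Hmgcs1 at chr13:119690101-119690350 (plus strand), Idi1 at chr13:8885356-8885605 (plus), Lss at chr10:76531355-76531604 (plus), Cyp51 at chr5:4104698-4104947 (minus) and Insig1 at chr5:28071162-28071411 (plus).
Hmgcs1: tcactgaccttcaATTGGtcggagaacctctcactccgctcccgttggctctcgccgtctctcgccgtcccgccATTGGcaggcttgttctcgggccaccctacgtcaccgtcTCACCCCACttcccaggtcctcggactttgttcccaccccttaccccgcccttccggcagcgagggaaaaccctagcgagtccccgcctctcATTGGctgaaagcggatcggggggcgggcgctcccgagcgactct
Idi1: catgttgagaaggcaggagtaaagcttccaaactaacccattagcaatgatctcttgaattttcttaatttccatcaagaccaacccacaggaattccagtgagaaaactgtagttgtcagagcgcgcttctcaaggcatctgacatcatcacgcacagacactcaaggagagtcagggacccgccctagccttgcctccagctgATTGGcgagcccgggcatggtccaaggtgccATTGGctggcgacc
Lss: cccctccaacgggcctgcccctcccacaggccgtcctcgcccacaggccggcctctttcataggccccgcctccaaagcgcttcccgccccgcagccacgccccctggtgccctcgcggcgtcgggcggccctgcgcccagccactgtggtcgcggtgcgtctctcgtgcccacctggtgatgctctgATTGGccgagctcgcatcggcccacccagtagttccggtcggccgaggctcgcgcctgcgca
Cyp51: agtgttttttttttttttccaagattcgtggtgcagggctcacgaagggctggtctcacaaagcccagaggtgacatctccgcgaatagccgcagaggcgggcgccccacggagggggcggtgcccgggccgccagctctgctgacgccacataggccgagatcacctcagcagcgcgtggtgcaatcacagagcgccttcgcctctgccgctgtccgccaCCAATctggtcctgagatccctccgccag
Insig1: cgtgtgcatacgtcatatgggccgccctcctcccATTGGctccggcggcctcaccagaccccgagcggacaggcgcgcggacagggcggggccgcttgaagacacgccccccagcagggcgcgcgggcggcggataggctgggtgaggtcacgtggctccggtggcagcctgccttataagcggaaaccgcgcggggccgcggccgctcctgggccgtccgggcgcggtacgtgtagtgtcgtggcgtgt
All 5 windows held at least 1 CCAAT box, which 33.8% of all 32851 promoter windows of this length also held. The sterol regulatory element motif was found in Hmgcs1 alone, 137 to 129 bases before the start, and in 1.05% of all windows. The E-box CACGTG was found in Insig1 alone, from 101 to 96 bases before the start (6.02% of all windows), and the GC box GGGCGG in all 5 (32.7% of all windows). Fdps, Fdft1 and Sqle had no entry in that table. None of these motifs overlapped another in these windows. These are matches of letters and not measured binding sites. The genes themselves lie, on GRCm38 with the GENCODE M21 annotation, at chr13:119690379-119708260 (Hmgcs1), chr13:8885501-8892451 (Idi1), chr3:89093588-89101959 (Fdps), chr14:63145150-63179578 (Fdft1), chr15:59315077-59331192 (Sqle), chr10:76531588-76557138 (Lss), chr5:4081145-4104746 (Cyp51) and chr5:28071363-28078662 (Insig1). In that annotation 6 of the 8 share exon bases with another gene: Hmgcs1 up to 458 with Gm48342 and Idi1 up to 323 with Gm48574, both on the other strand, Fdps up to 197 with Gm43738 on the same strand, and Fdft1, Lss and Cyp51 as given with their values. The levels of these 6 are uncertain to that extent, and the 3 Gm genes were not analysed here. The starts in the GENCODE annotation differ from those in the promoter table. By the GENCODE bounds the windows of Idi1, Lss, Cyp51 and Insig1 reach into the gene, and that of Hmgcs1 ends short of it. The distances given above are counted from the starts in the promoter table.

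Depth was similar in all libraries of the time-course table but 6. Relative to the median of the others, set to 1, the NanogWT libraries of D8, D10 and D12 were 1.89 to 3.26 times as deep, the 5 NanogBiD libraries of the same days 0.830 to 1.04 times, and the 20 libraries of D0 to D7 0.893 to 1.13 times. The values are FPKM, fragments per kilobase of gene model scaled to the number of mapped fragments, so that they are scaled for depth. However, depth and combination cannot be told apart from D8 on, and for NanogWT depth and the step from D7 to D8 cannot be told apart either. The labels were checked on the fusion partner: Ss18, whose N-terminal part the fusion carries, was at 61.7 ± 6.09 FPKM (SD, n = 2) with NanogBiD and 28.3 ± 3.23 (n = 2) with NanogWT at D0. Of 10 pluripotent cell markers, 8 were at 0 in both MEF libraries and their summed level was 3776 FPKM in mES, while 12 fibroblast markers summed to 5856 and 6918 FPKM in MEF and 12.6 in mES.

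The sum over the 8 genes gives the course in brief. In MEF it was 498 and 571 FPKM and in mES 404 FPKM. At D0 it was 417 and 477 FPKM with NanogBiD and 446 and 508 with NanogWT. At D1 it stood at 578 and 681 FPKM with NanogBiD and at 696 and 710 with NanogWT, above every D0 library. At D7 the sum was 511 and 581 FPKM with NanogBiD and 703 and 740 with NanogWT. At D8 the NanogWT libraries were at 161 and 165 FPKM, and the NanogBiD library was at 480 FPKM. The NanogWT sum was 160 and 214 FPKM at D10 and 301 and 397 FPKM at D12. In NanogBiD cells it was 679 and 739 FPKM at D10 and 591 and 601 FPKM at D12. Over the 15 NanogBiD libraries the sum never left the range of 417 to 744 FPKM, and the 6 NanogWT libraries of D8 to D12 were all below that range.

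**Figure D1:**
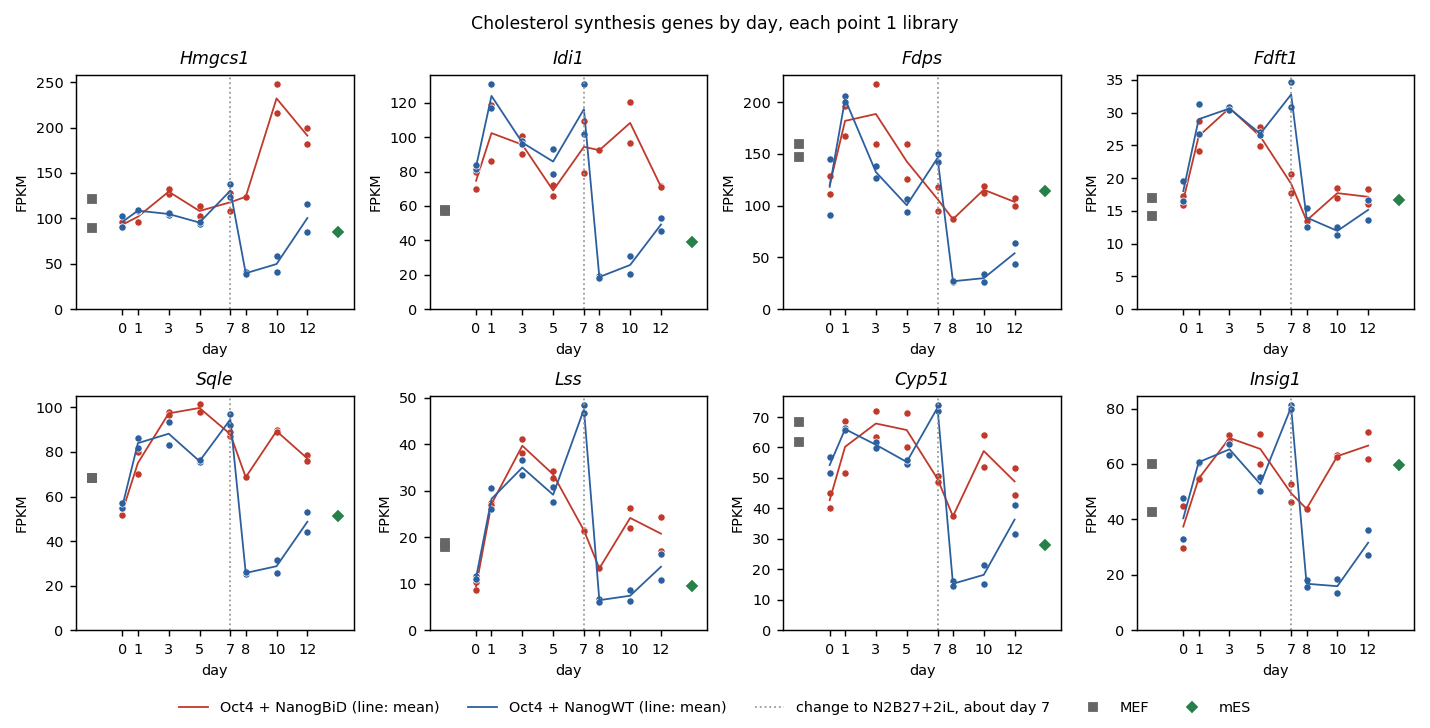
FPKM of each of the 8 genes (y axis) against day (x axis), 1 point per library, with the means joined, for NanogBiD (red) and NanogWT (blue), beside MEF (grey squares) and mES (green diamonds); the dotted line marks day 7. In each panel the NanogWT points at D8 lie below those at D7, with Hmgcs1 at 123 and 138 FPKM at D7 and at 40.7 and 38.2 FPKM at D8, whereas the NanogBiD points show no drop of that size.

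The first question was whether these genes took a step between D0 and D1, the first day in iCD3 medium. Both combinations went into that medium, so that medium and time since infection cannot be told apart at this step. Differences are given on the log2(FPKM + 1) scale from limma across 16842 genes, with their standard error. Genes that changed at least 2-fold with an adjusted p (Benjamini-Hochberg) below 0.05 are named as called. Lss, the cyclase that makes lanosterol, was the 1 member called in either combination. The NanogBiD libraries had it at 10.3 and 8.53 FPKM at D0 and at 27.4 and 26.8 at D1, a log2 difference of 1.44 (SE 0.18, limma adjusted p = 8.6e-06). With NanogWT it was at 11.6 and 11 FPKM at D0 and at 26.0 and 30.5 at D1, a difference of 1.25 (SE 0.18, limma adjusted p = 4.3e-05). The libraries of D0 and D1 did not overlap in either combination. By comparison, 5.06% of all genes tested were called higher at this step with NanogBiD and 4.61% with NanogWT, so that 1 member of 8 is a small count. An antisense gene that shares exon bases with Lss, 4930483K19Rik, moved the same way. Its means at D0 and D1 were 4.77 and 12.7 FPKM with NanogBiD and 4.23 and 12.7 with NanogWT. Reads of the pair cannot be told apart without strand, so that the level of Lss is uncertain.

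The other members had differences of 0.13 to 0.63 with NanogBiD and of 0.18 to 0.81 with NanogWT, so that all 8 were positive in both combinations. Their median, Lss included, was 0.52 with NanogBiD and 0.59 with NanogWT, beside 0.09 over all genes in each combination. Without the fold limit, 6 of 8 passed the adjusted p with NanogBiD (Fdps, Fdft1, Sqle, Lss, Cyp51 and Insig1) and 6 of 8 with NanogWT (Idi1, Fdps, Fdft1, Sqle, Lss and Insig1). Across all genes, 16.1% and 13.1% passed in the positive direction by that rule. Fdps, which makes farnesyl pyrophosphate, was at 129 and 111 FPKM at D0 and at 168 and 196 at D1 with NanogBiD. With NanogWT it was at 145 and 90.9 FPKM at D0 and at 206 and 200 at D1, without overlap in either combination. Fdft1, squalene synthase, was at 17.2 and 16 FPKM at D0 and at 24.1 and 28.7 at D1 with NanogBiD, and at 19.5 and 16.5 and then at 31.3 and 26.7 with NanogWT. Hmgcs1 was the member with the smallest difference in both, 0.13 (SE 0.16) and 0.18 (SE 0.16). In the fit of the NanogWT groups of D0 and D1 alone, Lss kept its difference but its adjusted p was 0.078. Without the first NanogWT replicates of D0 and D1, Fdps was called as well, at 1.13 (SE 0.27), which made 2 of 8.

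The difference between the combinations in this step was tested itself. None of the 8 was called, with differences from -0.22 to 0.19, and limma called 58 genes of 16842 (0.344%). At unadjusted p below 0.05, the comparison held 1608 genes. The members were read against the starting fibroblasts as well. None was called between D0 and MEF with NanogBiD, where 6701 genes had an unadjusted p below 0.05 and 11.4% of genes were called. None was called with NanogWT either, where 5269 genes had an unadjusted p below 0.05 and 6.75% were called. Lss was at 18.6 and 17.8 FPKM in MEF, so that both combinations stood below MEF at D0 and above it at D1. Its difference from MEF at D0 was -0.89 (SE 0.18) with NanogBiD and -0.65 (SE 0.18) with NanogWT.

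Other genes of the pathway were counted by list. Of 13 other sterol synthesis enzymes, 6 were called higher at D1 with NanogBiD and 4 with NanogWT, none lower, and all 13 were positive in both, with medians of 1.08 and 0.90. Tm7sf2, a sterol reductase, was called in both, at 1.81 and 2.27, as were Dhcr7, the last reductase of the route, at 1.08 and 1.31, and Nsdhl, which takes part in removing methyl groups from the sterol ring, at 1.10 and 1.19. Of 9 uptake and transport genes 1 was called higher in each combination. Of 10 fatty acid synthesis genes 4 and 3 were called higher, with Scd2 (1.36 and 1.42) and Acly (1.05 and 1.02) in both. None of the 9 genes of sterol sensing was called, and Srebf1 stood at 0.67 and 0.81, Srebf2 at 0.62 and 0.37 and Insig2 at -0.51 and 0.12. None of 8 genes of other isoprenoid branches was called.

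Genes of cholesterol efflux went both ways. Abca1, the transporter that exports cholesterol to apolipoproteins and a target of the oxysterol receptor LXR, was at 3.62 ± 0.338 FPKM (SD, n = 2) at D0 and 26.0 ± 11.9 (n = 2) at D1 with NanogBiD, a difference of 2.48. With NanogWT it was at 1.76 ± 1.2 (n = 2) and 28.1 ± 11 (n = 2), a difference of 3.41. Mylip, another LXR target, was called lower at -1.57 and -1.18. Thus 1 of the 8 measured genes of this list was called higher and 1 lower in each combination. Markers of other cells moved at the same step: 3 of 6 macrophage markers (Lyz2, Cd14 and Csf1r) were called lower in both combinations, and their summed level was 53.4 to 151 FPKM at D0 against 9.78 to 35.5 at D1 and 5.15 to 9.31 in MEF. Of 12 fibroblast markers 4 and 3 were called lower, among them Pdgfrb (-1.97 and -2.21), Fbln5 and Prrx1, and 2 and 3 higher, among them Lum (1.17 and 2.72). Of the 3 endothelial markers tested 1 was called lower, Kdr (-1.92 and -1.94), beside Tek (0.30 and 0.86) and Pecam1 (0.10 and 0.09). The 5 endothelial markers listed summed to 5.09 to 8.18 FPKM at D0 and 1.32 to 3.57 at D1. Of the 3 adipocyte markers tested Lpl was called lower with NanogBiD (-1.51) and stood at -0.82 with NanogWT, where none was called. No proliferation marker of 10 and no pluripotent cell marker of 10 was called in either combination. The part of these cells in the step was not tested.

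From D1 to D7 limma called no member at any step in either combination. Of all genes, 5.12%, 1.34% and 2.58% were called at the steps to D3, D5 and D7 with NanogBiD and 4.54%, 0.374% and 0.0653% with NanogWT. At unadjusted p below 0.05 the steps to D3, D5 and D7 held 3785, 1965 and 4176 genes with NanogBiD and 3982, 1163 and 684 with NanogWT. The medians of the 8 at the steps to D3, D5 and D7 were 0.28, -0.23 and -0.39 with NanogBiD and 0.01, -0.20 and 0.44 with NanogWT. The last of these steps went opposite ways: 6 of 8 were negative with NanogBiD and all 8 positive with NanogWT. At D7 all 8 were lower in NanogBiD than in NanogWT and 1 was called, Lss, at 21.5 and 21.3 FPKM against 46.6 and 48.3 FPKM (-1.11, SE 0.18, limma adjusted p = 0.00011). The antisense gene 4930483K19Rik, which overlaps Lss, had means of 7.65 FPKM with NanogBiD and 18.5 with NanogWT at D7. The difference in Lss is uncertain to that extent. Of all genes, 4.65% were called lower at that day. Fdft1, Cyp51 and Insig1 passed the adjusted p at D7 with differences of -0.75, -0.55 and -0.70, under the fold limit, so that 4 of 8 passed without it, beside 11.1% of genes in this direction. At D0, D1, D3 and D5 none of the 8 was called between the combinations, and limma called 0.76%, 1.33%, 3.7% and 6.48% of all genes at these days. At unadjusted p below 0.05 these comparisons held 2668, 2266, 3847 and 4911 genes.

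**Figure D2:**
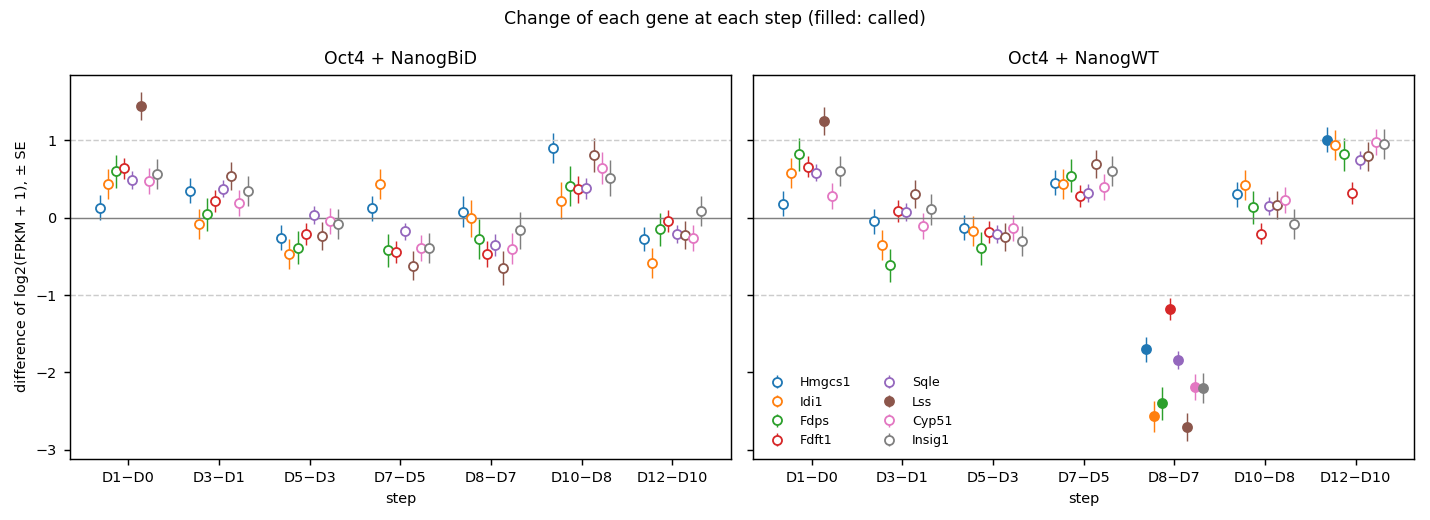
Difference of log2(FPKM + 1) between consecutive days (y axis, with its standard error) for each gene at the 7 steps (x axis), for NanogBiD (left) and NanogWT (right). Filled points were called by limma (adjusted p under 0.05 and at least 2-fold) and dashed lines mark the fold limit; all 8 genes are filled in the NanogWT step from D7 to D8, at -1.18 to -2.70, and none at that step with NanogBiD.

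The second question was whether the genes took a step at the medium change at about day 7. Both combinations were moved to the new medium, so that medium and days in culture cannot be told apart at this step. With NanogWT all 8 were called lower at D8 than at D7, where 3.06% of all genes tested were called lower. Their median difference was -2.20, beside 0.04 over all genes. With NanogBiD none of the 8 was called at this step, with differences of -0.65 to 0.08 and a median of -0.32, where 4.58% of genes were called and 4146 genes had an unadjusted p below 0.05. The NanogBiD value at D8 rests on 1 library, which is assumed to vary like the other groups. The members are taken in the order of the route.

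Hmgcs1, which condenses acetoacetyl-CoA and acetyl-CoA to HMG-CoA, was at 123 and 138 FPKM at D7 and at 40.7 and 38.2 at D8 with NanogWT. The ratio of the means was 3.31, and the log2 difference was -1.70 (SE 0.16, limma adjusted p = 3.6e-07). With NanogBiD it was at 108 and 128 FPKM at D7 and 124 FPKM at D8, inside the range of the D7 libraries. Idi1, which isomerises isopentenyl pyrophosphate, was at 102 and 131 FPKM and then at 19.1 and 18.2 with NanogWT, 6.24-fold lower (-2.57, SE 0.19, limma adjusted p = 3.5e-08). In NanogBiD cells it was at 79.4 and 109 FPKM at D7 and at 92.5 FPKM at D8, again inside the D7 range. Fdps was at 150 and 142 FPKM and then at 26.4 and 27.4 with NanogWT, 5.43-fold lower (-2.40, SE 0.21, limma adjusted p = 1.8e-07). The NanogBiD libraries had it at 94.4 and 118 FPKM and then at 86.9 FPKM, below both D7 libraries by less than they differed from each other.

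Fdft1 was the member with the smallest step. With NanogWT it was at 30.9 and 34.7 FPKM at D7 and at 15.5 and 12.5 at D8, 2.34-fold lower (-1.18, SE 0.14, limma adjusted p = 5.8e-06). With NanogBiD it was at 17.7 and 20.6 FPKM and then at 13.5 FPKM (-0.47, SE 0.17). Without the second replicates of D7 and D8 its NanogWT difference was -0.95 (SE 0.20), short of the fold limit. Exons of Fdft1 share up to 774 bases with Ctsb on the other strand, and Ctsb stood at 281 ± 11 FPKM (SD, n = 2) at D7 and 423 ± 60.9 (n = 2) at D8 with NanogWT. Whether reads were counted by strand is not given in the sources used here, so that the level of Fdft1 is uncertain. Sqle, the squalene epoxidase, was at 97.0 and 92.3 FPKM and then at 25.4 and 25.9 with NanogWT, 3.69-fold lower (-1.84, SE 0.11, limma adjusted p = 8e-09). In NanogBiD cells it was at 87.0 and 88.9 FPKM at D7 and at 68.7 FPKM at D8, below both D7 libraries (-0.35, SE 0.14, not called).

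Lss was the member with the largest step. With NanogWT it was at 46.6 and 48.3 FPKM and then at 6.73 and 6.15, 7.37-fold lower (-2.70, SE 0.18, limma adjusted p = 1.6e-08). The NanogBiD libraries had it at 21.5 and 21.3 FPKM and then at 13.3 FPKM, below both D7 libraries, a difference of -0.65 (SE 0.22) that was not called. The antisense gene 4930483K19Rik shares up to 150 bases of exon with Lss, so that reads of the pair cannot be told apart without strand. It was at 18.5 ± 1.11 FPKM (SD, n = 2) at D7 and 3.1 ± 0.980 (n = 2) at D8 with NanogWT. Cyp51, which removes a methyl group from lanosterol, was at 72.1 and 74.0 FPKM and then at 16 and 14.4 with NanogWT, 4.80-fold lower (-2.19, SE 0.17, limma adjusted p = 4e-08). With NanogBiD it was at 50.6 and 48.8 FPKM and then at 37.4 FPKM. It shares up to 166 bases of exon with Akap9 on the other strand, which was at 7.88 ± 0.415 and 7.28 ± 0.866 FPKM (SD, n = 2 each) at these days. Insig1, the brake, was at 81.3 and 79.7 FPKM and then at 15.5 and 18 with NanogWT, 4.81-fold lower (-2.20, SE 0.19, limma adjusted p = 1.7e-07). In NanogBiD cells it was at 52.6 and 46.2 FPKM at D7 and at 43.8 FPKM at D8.

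The difference between the combinations in the step from D7 to D8 was tested itself, and 7 of 8 were called higher in NanogBiD (2.14% of all genes). The differences were 2.56 for Idi1, 2.12 for Fdps, 2.05 for Lss, 2.03 for Insig1, 1.79 for Cyp51, 1.78 for Hmgcs1 and 1.49 for Sqle, with limma adjusted p from 0.00013 to 0.0012. Fdft1 was at 0.71 (SE 0.22, limma adjusted p = 0.063). At D7 all 8 stood lower in NanogBiD than in NanogWT (median -0.50, Lss at -1.11), and this gap is part of these differences. From D7 to D10, where each group has 2 libraries, all 8 were called lower with NanogWT (4.59% of genes lower), at -1.38 to -2.54, and none with NanogBiD (15.7% of genes called, 7967 at unadjusted p below 0.05). The difference between the combinations in this step was called for 8 of 8, from 1.28 for Fdft1 to 2.70 for Lss (6.72% of genes). These comparisons share the D7 libraries and are not independent of each other. Hmgcs1 alone passed the adjusted p from D7 to D10 with NanogBiD, upwards, at 0.98 (SE 0.16), beside 21.3% of genes, and without the second replicates it was called, which made 1 of 8.

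**Figure D3:**
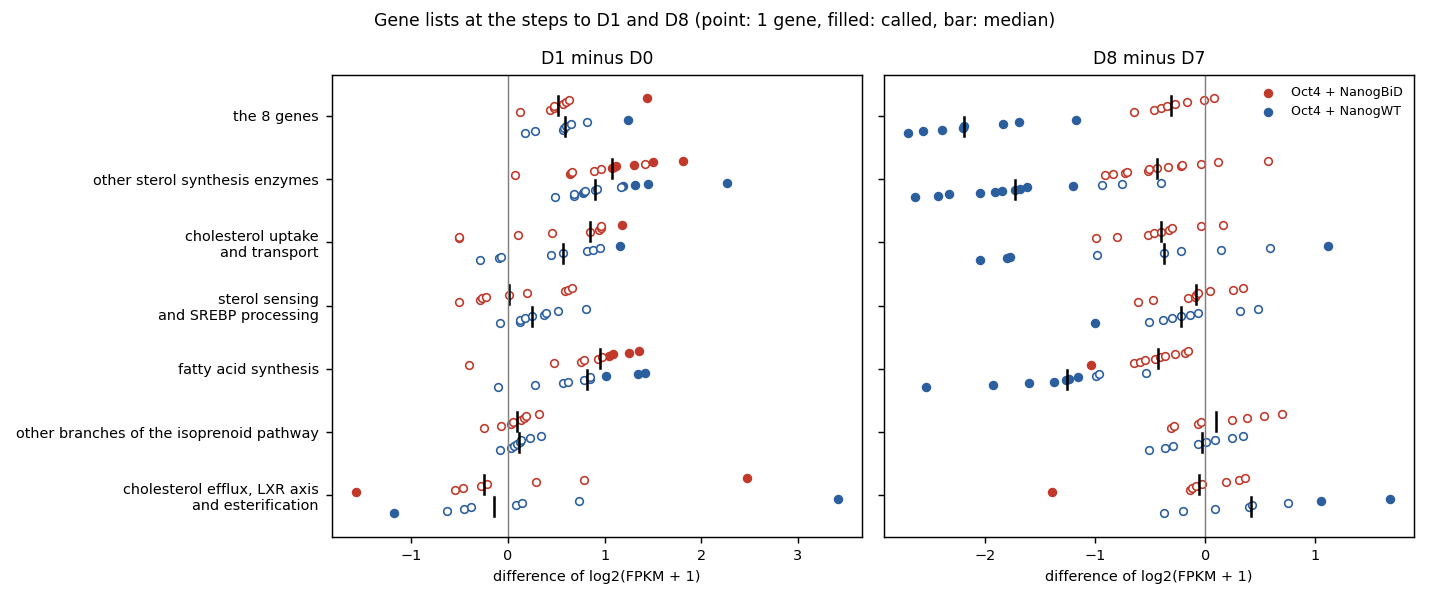
Difference of log2(FPKM + 1) of each gene (x axis) by gene list (rows) at the steps from D0 to D1 (left) and from D7 to D8 (right), for NanogBiD (red) and NanogWT (blue); filled points were called and bars are medians. From D7 to D8 the medians of the 8 genes are -2.20 with NanogWT and -0.32 with NanogBiD, and those of the 13 other sterol synthesis enzymes are -1.73 and -0.44.

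The rest of the pathway was counted at the same step. Of the 13 other sterol synthesis enzymes 10 were called lower from D7 to D8 with NanogWT and none with NanogBiD, with medians of -1.73 and -0.44. The difference between the combinations in this step was called for 6 of the 13. Of 9 uptake and transport genes 3 were called lower and 1 higher with NanogWT and none with NanogBiD. Of 10 fatty acid synthesis genes 7 were called lower with NanogWT and 1 with NanogBiD. That 1 was Scd1, a stearoyl-CoA desaturase, at -1.04 with NanogBiD and -2.54 with NanogWT.

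Of the 9 sensing genes 1 was called at this step, Srebf2, which was at 75.7 ± 11.7 FPKM (SD, n = 2) and then 37.2 ± 3.96 (n = 2) with NanogWT, a difference of -1.0 (SE 0.16), and at 66.1 ± 14.7 (n = 2) and then 58.3 FPKM with NanogBiD (-0.16, SE 0.20). Srebf1 was at -0.38 and -0.09 and Insig2 at -0.51 and -0.47, neither called. None of 8 genes of other isoprenoid branches was called in either combination. Of the 8 measured genes of efflux and esterification 2 were called higher with NanogWT and 1 lower with NanogBiD. The latter was Abca1, at 61.6 ± 4.81 FPKM (SD, n = 2) at D7 and 22.8 FPKM at D8, and with NanogWT it was at 43.3 ± 2.58 (n = 2) and 59.6 ± 16.5 (n = 2).

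Markers of cell state moved at the same days. From D7 to D8 with NanogWT 7 of 12 fibroblast markers were called higher and 1 lower, among them Col1a1 (1.26), Col1a2 (1.75) and Fbln5 (2.04). With NanogBiD 3 of the 12 were called higher, the same 3 genes (1.57, 1.58 and 1.38), and 1 lower, Postn (-1.25), and 5 of the 12 were negative. The sum over the 12 was 1707 to 1779 FPKM at D7 and 2713 to 2730 at D8 with NanogWT. With NanogBiD that sum was 895 to 1115 FPKM and then 1007 FPKM. The pluripotent cell markers summed to 15.7 to 16.4 FPKM and then 20.6 to 24.4 with NanogWT, and to 128 to 140 and then 477 FPKM with NanogBiD. The 10 proliferation markers summed to 177 to 208 FPKM at D7 and 144 to 183 at D8 with NanogWT, with none called, and to 462 to 506 and then 862 FPKM with NanogBiD, with none called. Of 3 adipocyte markers tested 1 was called lower from D7 to D8 with NanogWT, Fabp4 (-1.33), and none with NanogBiD, and the 6 listed summed to 3.22 to 7.20 FPKM over all libraries of these days. At D10 all 10 proliferation markers and all 10 pluripotent cell markers were called higher in NanogBiD than in NanogWT, and 11 of 12 fibroblast markers lower, all but Pdgfra. The pluripotent cell markers then summed to 796 to 1303 FPKM with NanogBiD and 50.2 to 108 with NanogWT, and the fibroblast markers to 476 to 595 and 3595 to 3732 FPKM. The part of these differences in the step of the 8 genes, or in their differences between the combinations, was not tested.

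**Figure D4:**
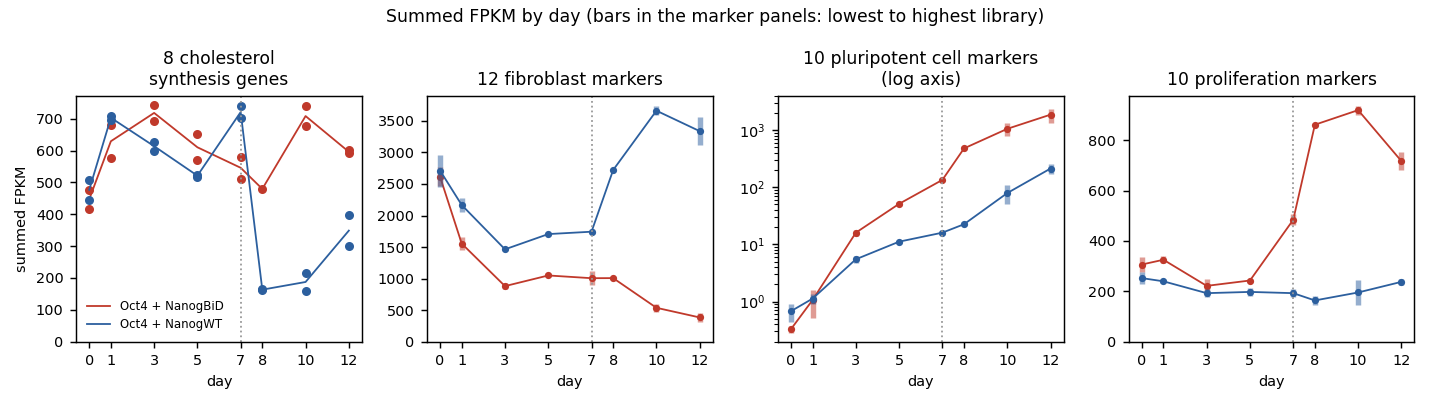
Summed FPKM (y axis, log scale for the pluripotent cell markers) against day (x axis) of the 8 cholesterol synthesis genes, 12 fibroblast markers, 10 pluripotent cell markers and 10 proliferation markers, with NanogBiD in red and NanogWT in blue; points in the first panel are libraries, bars in the others span the lowest to the highest library and the dotted line marks day 7. The sum of the 8 genes was 703 and 740 FPKM at D7 and 161 and 165 at D8 with NanogWT, while the sum of proliferation markers was 462 to 506 FPKM at D7 and 862 at D8 with NanogBiD.

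With NanogWT no member was called between D8 and D10, with differences from -0.21 to 0.42, where 0.546% of genes were called and 1428 genes had an unadjusted p below 0.05. From D10 to D12 all 8 were positive, at 0.31 to 1.01. Hmgcs1 was the 1 called, at 40.6 and 58.6 FPKM at D10 and 116 and 84.4 at D12 (1.01, SE 0.16, limma adjusted p = 0.00062), where 1.54% of genes were called higher. Without the fold limit 7 of 8 passed (2.89% of genes), all but Fdft1. Pluripotent cell markers moved at the same step: 3 of 10 were called higher (Dppa5a at 2.06, Fgf4 at 1.11 and Esrrb at 1.08) and all 10 were positive, and their sum was 50.2 to 108 FPKM at D10 and 174 to 251 at D12. None of 12 fibroblast or 10 proliferation markers was called. The part of these markers in the step was not tested. The step of the members turns on single libraries: without the first replicates of D10 and D12 none was called, and without the second 7 were. Between D0 and D12 the NanogWT differences ran from -1.10 to 0.22 and 1 of 8 was called, Fdps, at 64.0 and 43.7 FPKM at D12 against 145 and 90.9 at D0 (-1.10, SE 0.21). Of all genes 3.95% were called lower between these days, and Fdps was not called after rescaling to a common total, after quantile normalization or in the fit of these groups alone.

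With NanogBiD limma called no member from D8 to D10, where 5.12% of genes were called and 3758 had an unadjusted p below 0.05, or from D10 to D12, where 1.38% were called and 2140 had. Hmgcs1 reached its highest levels in these libraries, at 216 and 248 FPKM at D10 and 182 and 200 at D12, above all libraries of all other groups. Its difference from D8 to D10 was 0.90 (SE 0.20, limma adjusted p = 0.0055), under the fold limit. Between D0 and D12 it was called higher (1.03, SE 0.16, limma adjusted p = 1.6e-05), as was Lss (1.05, SE 0.18, limma adjusted p = 5.2e-05). These are 2 of 8 where 24.6% of all genes were called higher, and the median of the 8 was 0.35 beside 0.34 over all genes. Without the second replicates of D0 and D12 neither was called.

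The combinations were compared day by day after the medium change. At D8, 6 of 8 were called higher in NanogBiD (13% of genes), all but Fdft1 and Lss. Lss was at 0.94 (SE 0.22), just under the fold limit, and with a pseudocount of 0.1 it was called, at 1.03. The largest was Idi1, at 92.5 FPKM in the NanogBiD library and 19.1 and 18.2 in NanogWT, and Fdft1 did not differ beyond its spread, at 13.5 FPKM against 15.5 and 12.5. At D10, 7 of 8 were called higher (15.4% of genes), with Hmgcs1 4.68-fold (2.22, SE 0.16, limma adjusted p = 1.8e-09) and Idi1 4.22-fold (2.05, SE 0.19, limma adjusted p = 4.7e-08) in the lead. Fdft1 was again the exception, at 18.4 and 17 FPKM against 12.6 and 11.3 (0.53, SE 0.14). Ctsb, which shares exon bases with Fdft1, had means of 62.7 FPKM with NanogBiD and 433 with NanogWT at D10. At D8 Ctsb was at 167 FPKM in the NanogBiD library and at a mean of 423 with NanogWT. The comparison of Fdft1 is therefore uncertain at both days. At D12, 1 of 8 was called, Insig1, at 71.6 and 61.7 FPKM against 36.1 and 27 (1.06, SE 0.19, limma adjusted p = 0.00014), beside 13.5% of genes. There 7 of 8 passed without the fold limit, beside 31.6% of genes. Without the first replicates of D12, 4 members were called at that day, and without the second none.

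In the order of the 18 group means, NanogWT at D8 and D10 were the lowest groups for every member but Fdft1, for which NanogBiD at D8 lay between them, and these 2 groups overlapped for every member but Idi1. The highest group was NanogWT at D7 for Fdft1 (32.8 FPKM), Lss (47.5), Cyp51 (73.1) and Insig1 (80.5), NanogWT at D1 for Idi1 (124) and Fdps (203), NanogBiD at D5 for Sqle (99.8) and NanogBiD at D10 for Hmgcs1 (232). Of the 17 pairs of neighbours in each order, 3 (Fdft1) to 9 (Sqle) had libraries that did not overlap, so that for every member but Sqle most neighbouring groups overlapped.

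Most members followed each other closely. Over the 31 time-course libraries, Pearson r between members on the log2 scale had a median of 0.84 over 28 pairs (0.35 to 0.96). These libraries differ in combination, day and medium, so that r includes the differences between groups. Cyp51 (0.97), Sqle (0.97) and Insig1 (0.97) were closest to the mean of the other members, and Fdft1 (0.78) and Hmgcs1 (0.75) furthest from it. Among the 16834 other genes tested, the 5 whose profile was most like the mean of the members included Nsdhl (0.96), Gm38481 (0.94) and Fads1 (0.93), a fatty acid desaturase. These are descriptions over the same libraries. Gm38481 was at 88.0 ± 14.2 FPKM (SD, n = 2) at D7 and 14.4 ± 0.733 (n = 2) at D8 with NanogWT. Its levels ran beside those of the member Idi1, which had means of 116 and 18.6 FPKM at these days. In MEF the means were 44.6 FPKM for Gm38481 and 57.6 for Idi1. Whether Gm38481 and Idi1 share reads was not tested. Of the regulators, Srebf2 was at 0.86, Srebf1 at 0.33 and Insig2 at 0.15.

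The members were also set beside mES, which has 1 library. In the time-course table Cyp51 was called lower in mES than in MEF, at 27.9 FPKM against 68.4 and 61.7 (-1.19, SE 0.20, limma adjusted p = 4.6e-05), the 1 of 8 where 14.5% of genes were called lower. NanogBiD at D12 was above mES for Hmgcs1 (1.16, SE 0.21) and Lss (1.02, SE 0.22), 2 of 8 where 15.7% of genes were called higher, and without the second NanogBiD replicate 1 was called. NanogWT at D12 was below mES for Fdps (-1.10, SE 0.26), 1 of 8 where 19.1% of genes were called lower, and it was not called without the second replicate.

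In the established iPSC no member was called between NanogBiD and NanogWT, and none of the 12456 genes tested was called by limma (0%), while 201 had an unadjusted p below 0.05. The differences of the 8 ran from -0.24 (SE 0.09) for Insig1 to 0.08 (SE 0.11) for Cyp51. Hmgcs1 was at 47.6 to 90.5 FPKM (median 73.6, n = 6) in NanogBiD iPSC and at 60.9 to 85.2 (median 69.6, n = 6) in NanogWT iPSC, Idi1 at 12.7 to 27.6 (median 20.8, n = 6) and 13.1 to 27 (median 19.1, n = 6), and Lss at 4.41 to 10.6 (median 7.18, n = 6) and 5.04 to 8.00 (median 5.94, n = 6). The ranges of the combinations overlapped for each of the 8.

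Against MEF, 3 of 8 were called lower in iPSC (14.6% of genes): Cyp51 at -2.01 (SE 0.14), Fdps at -1.51 (SE 0.12) and Lss at -1.47 (SE 0.15). All 8 passed without the fold limit, where 25.7% of genes did in this direction. Genes entered by their level in the iPSC samples, so that genes silent there are missing from both shares. Cyp51 was at 9.19 to 18 FPKM (median 14.6, n = 12) in iPSC and at 64.5 and 60.9 in MEF, and Fdps at 49.3 to 98.3 (median 66.2, n = 12) and at 204 and 196. Against mES, Fdps was the 1 called lower (-1.04, SE 0.16, limma adjusted p = 0.0044, 3.3% of genes), with mES at 144 FPKM above all 12 iPSC samples. With the iPSC1 and iPSC2 samples pooled within each combination, Fdps was not called (-1.10, SE 0.31, limma adjusted p = 0.0538) and Insig1 was (-1.02, SE 0.28, limma adjusted p = 0.0498). Without the fifth-numbered NanogWT iPSC2 sample Insig1 was called as well (-1.02), which made 2 of 8. Insig1 was at 17.8 to 39.8 FPKM (median 24.1, n = 12) in iPSC and at 51.0 in mES.

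**Figure D5:**
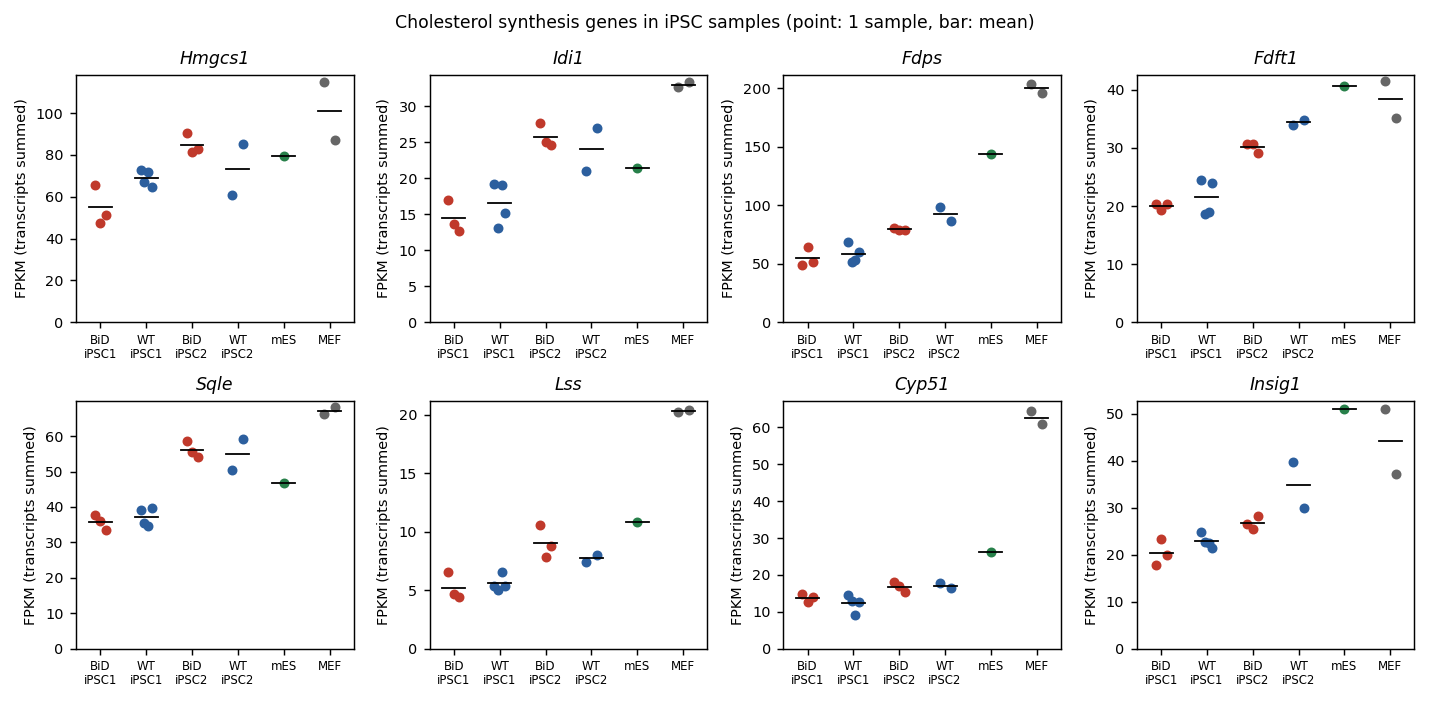
FPKM of each gene with its transcripts summed (y axis) in NanogBiD (red) and NanogWT (blue) samples of iPSC1 and iPSC2, mES (green) and MEF (grey) on the x axis; points are samples and bars means. All 5 iPSC2 samples lie above all 7 iPSC1 samples for Idi1, Fdps, Fdft1, Sqle, Lss, Cyp51 and Insig1, and Fdps in mES (144 FPKM) lies above all 12 iPSC samples.

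The iPSC samples differed more between the labels iPSC1 and iPSC2 than between the combinations. All 8 members were lower in iPSC1 than in iPSC2, at -0.36 to -0.66 with a median of -0.58 beside -0.02 over all genes, none past the fold limit (0.883% of genes were called). Without the fold limit 6 of 8 passed, all but Hmgcs1 and Cyp51, where 2.46% of genes did in this direction. Sqle was at 33.5 to 39.8 FPKM (median 35.9, n = 7) in iPSC1 and at 50.4, 54.2, 55.7, 58.7 and 59.3 in iPSC2. Fdft1 was at 18.7 to 24.4 FPKM (median 20.3, n = 7) in iPSC1 and at 29.1, 30.6, 30.6, 34 and 34.8 in iPSC2. The samples of iPSC1 and iPSC2 did not overlap for 7 of the 8, Hmgcs1 being the exception. Of the other lists, 11 of 13 other sterol synthesis enzymes were negative with a median of -0.27, none called. What the labels iPSC1 and iPSC2 stand for is not given in the sources used here. All iPSC2 samples had a lower passage number than the iPSC1 samples, so that label and passage number cannot be told apart. Of the NanogWT iPSC1 samples, 2 share a clone number in the labels.

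Single transcripts stood for 4 members in the iPSC table (Idi1, Sqle, Cyp51 and Insig1). Fdps was carried mostly by NM_134469.4, at 64.4% to 90.0% of its FPKM over the 12 iPSC samples and 70.9% to 72.5% in MEF. Lss was carried by NM_146006.2, at 88.8% to 100% in iPSC and 98.7% to 99.5% in MEF. Fdft1 had 64.3% to 98.0% of its FPKM on NM_010191.3 in iPSC and 55.8% to 71.4% in MEF. For Hmgcs1 no transcript was the main one in all samples. NM_001291439.1 took from 35.5% to 72.6% in iPSC and 35.0% to 69.4% in MEF, so that single samples of a group differed as much as groups did. NM_145942.5 took 10.8% to 49.3% in iPSC and 29.0% to 61.5% in MEF. XM_006517578.1 took 0.856% to 52.1% in iPSC, 1.61% to 3.51% in MEF and 31.6% in mES.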

How the data were processed

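RNA-seq was analysed from processed values deposited by the authors. The authors trimmed reads with Trim Galore 0.6.4, aligned them to mm10 with HISAT2 2.2.1 and quantified them with StringTie 2.2.1, per the submitters' processing notes, and deposited FPKM per gene (37108 genes, 34 samples) and per transcript (106520 transcripts, 15 samples). The annotation release and whether strand was used are not given in the sources used here. FPKM are not counts, so no count model was applied, and read depth per library is not part of the tables. Relative depth was taken from the most common ratio of 2 libraries' values over genes with low values in both, which estimates the ratio of what 1 read is worth, and the deep NanogWT libraries were chained through 1 of them. The depth of the iPSC table is unknown.

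Values were tested as log2(FPKM + 1), which understates changes of low genes. A gene entered when 2 or more time-course libraries reached 1 FPKM, which 16842 did. One limma fit (3.58.1, R 4.3.3, eBayes with trend) had a mean for each group, so that groups with 1 library borrowed the pooled spread. In the iPSC table transcripts were summed by symbol, and the 12456 genes that reached 1 FPKM in 2 or more iPSC samples entered. The combinations, and iPSC1 and iPSC2, were compared in a fit with combination and label as covariates. For the comparisons with mES and MEF, a mean was fitted for each combination and label, and these means were weighted equally. Tests are two-sided, adjusted over all genes tested. Replicates are labelled as separate samples, but nothing says that they came from separate cultures, so p-values measure only the spread between these samples, which may be technical. Python 3.11.15, numpy 2.4.6, pandas 2.3.3 and matplotlib 3.10.9 were used. The fits were tested on simulated data.

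Members called are counted in every comparison, but values of single members are given for some comparisons only. Of the other lists, genes called in both combinations in the same direction from D0 to D1 or from D7 to D8 are named (at most 4 a list, by size), and Srebf1, Srebf2 and Insig2 always. The 5 genes most like the mean member profile are named too. Some genes that these rules name are not reported here. The members, lists and tests were chosen with earlier results of these data known. The comparison of iPSC1 with iPSC2 and the fit without the deep libraries were added after seeing the data. The overlapping genes were named after their values were seen. Alternatives were another pseudocount, no filter, no fold limit, rescaling to a common total, quantile normalization and the compared groups alone. Others were iPSC fits without the labels iPSC1 and iPSC2, a replicate block and leaving out samples.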

Additional observations from a re-analysis of the deposited data

Results flagged for a closer look

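The 8 genes stand here because their change from D7 differed between the combinations by a test of the difference itself (limma interaction, NanogBiD minus NanogWT). From D7 to D8 this held for Hmgcs1 (1.78), Idi1 (2.56), Fdps (2.12), Sqle (1.49), Lss (2.05), Cyp51 (1.79) and Insig1 (2.03) on the log2 scale. From D7 to D10 it held for Hmgcs1 (2.37), Idi1 (2.36), Fdps (2.39), Fdft1 (1.28), Sqle (1.72), Lss (2.70), Cyp51 (2.20) and Insig1 (2.63). In each case the NanogWT libraries stood lower after D7 and the NanogBiD libraries did not change past the threshold. All 8 stood lower in NanogBiD than in NanogWT at D7, and this gap is part of these differences. The 6 NanogWT libraries of D8 to D12 were 1.89 to 3.26 times as deep as the median of the others, and depth and combination cannot be told apart there. No sample stood far from the rest among the 6 NanogBiD iPSC, the 6 NanogWT iPSC or the 4 NanogWT iPSC1 samples for any of the 8 genes, 24 sets of values in all; groups of 3 or fewer samples were not looked at for this.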

How the results depend on the processing

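The step of NanogWT from D7 to D8 kept all 8 genes called lower under every alternative for that comparison except 1, the fit without the second replicates, where 7 were called, and D7 to D10 kept 8 of 8. With the replicate block the counts were as in the fit without it in every comparison, 8 of 8 for D7 to D8; the same-numbered samples of the combinations correlated by -0.065 to 0.39 over 7 days, so the numbers were not taken as pairs. Without the fold limit the counts rose to 6 for D0 to D1 in each combination, 7 for NanogWT D10 to D12, 7 for NanogBiD against NanogWT at D12, 4 at D7 and 1 at D5, and by less than 1.5 times to 7 at D8 and 8 at D10. They rose to 1, 1, 2, 1 and 4 for NanogBiD D1 to D3, D5 to D7, D8 to D10, D7 to D10 and D0 to D12, to 3 for NanogWT D0 to D12, to 3 and 1 for D0 against MEF (NanogBiD, NanogWT), 3 for mES against MEF, 5 and 2 for D12 against mES (NanogBiD, NanogWT), 4 for iPSC against mES, 8 for iPSC against MEF and 6 for iPSC1 against iPSC2. Quantile normalization gave 1 for NanogBiD D8 to D10, 1 for NanogBiD D0 to D12, 2 for NanogWT D10 to D12, and 0 for NanogWT D0 to D12 and for NanogWT D12 against mES. Rescaling to a common total gave 0 for NanogWT D10 to D12, D0 to D12 and D12 against mES, and 2 for mES against MEF. A pseudocount of 0.1 gave 2 for NanogWT D10 to D12. Fits of the compared groups alone gave 0 for NanogWT D0 to D1, D10 to D12 and D0 to D12, for mES against MEF and for NanogBiD D12 against mES. Leaving out replicates gave 0 to 1 for NanogBiD D7 to D10, 0 to 3 for NanogBiD D0 to D12, 1 to 2 for NanogWT D0 to D1, 0 to 7 for NanogWT D10 to D12, 0 to 4 for the combinations at D12 and, without the second NanogBiD or NanogWT replicate, 1 and 0 for D12 against mES, and 1 to 2 for iPSC against mES. The causes were not tested. Differences near 0 changed sign for NanogBiD D7 to D8 in Hmgcs1 (-0.12, quantile normalization) and Idi1 (0.042 with the replicate block, 0.22 without the second replicates) and for iPSC against mES in Sqle (0.0063, quantile normalization). Leaving the 6 deep NanogWT libraries out of the fits of other groups, an alternative chosen after seeing the data, changed no count of members called. Scaling moved the median of all genes by over 0.1 in 10 comparisons, most for NanogBiD D0 to D12 (-0.36, quantile normalization). NanogBiD at D8 and mES rest on 1 library each.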
